A study of Mus musculus with 27 samples.

Results

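The genes described here are 10 genes of inhibitory neurons that release GABA, the main inhibitory transmitter of the forebrain. They were taken by name, as the rows whose identifiers map to the symbols Gad1, Gad2, Slc32a1, Pvalb, Calb1, Calb2, Lhx6, Reln, Nos1 and Erbb4, and all 10 were found among 52636 rows. All 10 reached at least 1 CPM (counts scaled to a common library total) in every library and entered every test. Gad1, Gad2 and Slc32a1 are used by every GABA neuron, so in the striatum the projection neurons carry them too, and these 3 are called the shared GABA genes. The other 7 are called the interneuron genes.

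Total RNA, depleted of ribosomal RNA, was sequenced from the frontal cortex (FX) and the striatum (STR) of 129S1 mice aged about 2.5 months. WT mice were compared with Igf2enh-/- mice, which are homozygous for a 4.9 kb deletion in the intergenic sequence between H19 and Igf2, with 1 loxP site left behind after a cross to an Hprt-CRE line removed the selection cassette, so that the deletion is carried in every tissue. There were 6 WT and 6 Igf2enh-/- libraries of FX, each with 3 females and 3 males, and 7 WT (3 females, 4 males) and 8 Igf2enh-/- (4 females, 4 males) libraries of STR. By these labels 13 libraries are WT and 14 Igf2enh-/-, whereas the description of the series gives 14 and 13; the labels were used. The labels do not say which FX and STR libraries came from one mouse, so all 27 were treated as separate samples, and where 2 of them share a mouse the p-values of the region comparison do not take that into account.

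GABA neurons make their transmitter from glutamate with the glutamate decarboxylases GAD67 (Gad1) and GAD65 (Gad2), and load it into vesicles with the transporter VGAT (Slc32a1). In the cortex these neurons are a minority of local interneurons among glutamatergic cells, and their subclasses are told apart by calcium-binding proteins, peptides and transcription factors. In the striatum most neurons are GABAergic medium spiny projection neurons, and the interneurons are a small fraction. Pvalb (parvalbumin) marks fast-spiking interneurons, Calb2 (calretinin) and Nos1 (neuronal nitric oxide synthase) mark other classes, Lhx6 is a transcription factor of interneurons born in the medial ganglionic eminence, Reln encodes the secreted protein reelin, and Erbb4 the neuregulin receptor found on many cortical interneurons. Calb1 (calbindin) is made in some interneurons and also in medium spiny neurons and upper-layer cortical pyramidal cells. In these bulk libraries, fewer cells of a type and less RNA per cell cannot be told apart.

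In GRCm38 the genes lie, by RefSeq, at chromosome 2, 70561303 to 70602014 (Gad1), chromosome 2, 22621015 to 22693877 (Gad2), chromosome 2, 158607260 to 158615747 (Slc32a1), chromosome 15, 78191112 to 78206400 (Pvalb), chromosome 4, 15881264 to 15906709 (Calb1), chromosome 8, 110142526 to 110168212 (Calb2), chromosome 2, 36081950 to 36105992 (Lhx6), chromosome 5, 21884454 to 22344705 (Reln), chromosome 5, 117866839 to 117958840 (Nos1) and chromosome 1, 68031884 to 69108576 (Erbb4). Slc32a1 shares 697 exon bases with the antisense gene Gm14205 and Reln shares 246 with the antisense gene Gm10475. Whether counting used the strand is not given in the sources used here, so part of these 2 counts may come from the other strand.

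Promoter sequence was matched for 8 of the 10 genes in RefSeq (GRCm38.p6), with 11 start sites in all, and not for Calb1 and Calb2. The 250 bases before a listed start site are shown for the 3 shared GABA genes, whose levels differed most clearly between regions. They are also shown for Pvalb, the gene that was lowest in STR relative to FX. The start sites used for Gad1, Gad2 and Slc32a1 lie inside the gene spans given above. Their windows are therefore not the sequence before the first base of those spans. Capitals mark any of 5 letter strings that were searched on both strands: TATAAA is the core promoter element bound by TBP, TAATTA a core that homeodomain factors read, TGACGTCA the cyclic AMP response element, GGGCGG the element read by Sp factors, and CAGATG an E-box read by basic helix-loop-helix factors. No string overlapped another in these windows.
Gad1, chr2:70561879-70562128, + strand: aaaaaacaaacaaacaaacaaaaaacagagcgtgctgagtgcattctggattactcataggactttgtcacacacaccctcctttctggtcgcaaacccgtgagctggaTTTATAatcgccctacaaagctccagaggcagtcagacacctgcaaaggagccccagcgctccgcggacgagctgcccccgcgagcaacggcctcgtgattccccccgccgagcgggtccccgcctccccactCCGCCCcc
Gad2, chr2:22622077-22622326, + strand: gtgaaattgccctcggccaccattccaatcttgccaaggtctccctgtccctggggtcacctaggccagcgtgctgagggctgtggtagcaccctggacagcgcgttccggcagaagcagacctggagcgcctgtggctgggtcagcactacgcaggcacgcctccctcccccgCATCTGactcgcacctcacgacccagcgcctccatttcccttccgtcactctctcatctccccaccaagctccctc
Slc32a1, chr2:158610508-158610757, + strand: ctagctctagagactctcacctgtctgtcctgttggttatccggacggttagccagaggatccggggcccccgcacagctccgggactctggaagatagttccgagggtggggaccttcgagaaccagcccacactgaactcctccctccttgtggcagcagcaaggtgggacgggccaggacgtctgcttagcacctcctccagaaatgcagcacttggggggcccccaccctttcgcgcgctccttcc
Pvalb, chr15:78206401-78206650, - strand: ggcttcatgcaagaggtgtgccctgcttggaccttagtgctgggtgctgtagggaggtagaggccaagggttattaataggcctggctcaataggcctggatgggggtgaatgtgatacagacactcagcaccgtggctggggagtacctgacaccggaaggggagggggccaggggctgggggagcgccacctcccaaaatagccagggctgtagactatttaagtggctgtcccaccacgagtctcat
The Gad1 window held TATAAA, on the other strand, 141 bases before the start, and GGGCGG, also on the other strand, 8 bases before it. The Gad2 window held CAGATG on the other strand, 76 bases before the start. None of the 5 strings was in the Slc32a1 and Pvalb windows. Of 32851 such windows in the RefSeq table, 12.4% held TATAAA, 32.7% GGGCGG, 14.4% CAGATG, 4.84% TAATTA and 1.55% TGACGTCA. The windows of Gad1, Gad2 and Slc32a1 were 58.0%, 64.0% and 62.4% G and C with 17, 13 and 12 CG pairs, that shown for Pvalb was 58.4% with 4, and the medians over all windows were 52.4% and 6. Pvalb has another start site in the table, whose window (chr15:78204238-78204487) was 71.6% G and C with 23 CG pairs and also held none of the strings. A string found this way is a match of letters only, and a missing one says nothing about any factor.

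Sequencing gave 24929068 to 30979248 counts per FX library and 23686945 to 33926904 per STR library. Regional markers fitted the labels: the cortical glutamatergic markers Slc17a7 and Neurod1 were higher in every FX library than in any STR library, and the first 3 medium spiny markers (Drd1, Drd2, Adora2a) were higher in every STR library than in any FX library. The regional markers varied widely among the STR libraries. The summed level of 10 cortical glutamatergic markers ran from 65.1 to 1260 CPM over the STR libraries, against 2280 to 2520 CPM in FX, and Slc17a7, the cortical vesicular glutamate transporter, from 13.6 to 750.0 CPM. Among STR libraries, WT library 20 had the highest level of all 10 of these markers and of all 6 oligodendrocyte markers and the lowest medium spiny sum (5260 CPM, the highest being 14200). Igf2enh-/- library 19 and WT library 26 had the highest sums of 7 septal and pallidal markers, 189 and 142 CPM, where the other STR libraries were at 30.5 to 49.7 CPM. The same libraries had the highest sums of 5 thalamic markers, 93.8 and 73.1 CPM, against 30.6 to 48.9 CPM in the other STR libraries. Igf2enh-/- library 15 held 4580 CPM of 10 choroid plexus markers, led by Ttr at 3050 CPM, against 171 to 368 CPM in the other STR libraries. In FX, Igf2enh-/- library 9 had the highest level of all 6 olfactory bulb markers (summed 82.2 CPM, others 19.3 to 36.1). These 5 libraries were left out in an alternative whose values are given where they change a call.

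The libraries' labels were checked against Igf2, the gene beside the deletion. Igf2 had 51.9, 71.3 and 107 CPM (lowest, median, highest) in WT FX and 88.3, 119 and 173 CPM in Igf2enh-/- FX (log2 fold change 0.77, SE 0.134, adjusted p = 0.0285). In STR the levels were 34.1, 37.0 and 44 CPM in WT and 46.0, 51.8 and 259 CPM in Igf2enh-/- (log2 fold change 0.89, SE 0.326, adjusted p = 0.386 by edgeR's test). The library at 259 was number 15, that of the choroid plexus markers. Every Igf2enh-/- library of STR was above every WT one, although edgeR's test did not call Igf2 there, while in FX the genotypes overlapped. The paper reports higher Igf2 in Igf2enh-/- mice in both regions by a Wilcoxon test. The deletion holds no exon of a gene, so these counts do not show it directly.

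The region comparison asked how the 2 kinds of gene differed between striatum and frontal cortex. The 3 shared GABA genes were higher in STR, Slc32a1 2.95-fold, Gad2 2.41-fold and Gad1 1.69-fold, and every STR library was above every FX library for each of them. The 7 interneuron genes did not move as a block: Nos1 (1.51-fold), Reln (1.32-fold) and Calb1 (1.24-fold) were higher in STR, Pvalb (2.78-fold), Calb2 (1.99-fold) and Erbb4 (1.46-fold) were lower, and Lhx6 did not pass the test. With 13414 genes tested by edgeR's quasi-likelihood test, 39.4% of all genes were called higher in STR and 38.3% lower, so 6 higher and 3 lower of 10 is close to the share among all genes. The groups did not overlap for 4 of the 10 genes (Gad1, Gad2, Slc32a1 and Erbb4), against 26.0% of all genes tested. The median log2 difference was 1.27 over the 3 shared GABA genes and -0.10 over the 7 interneuron genes, beside 0.01 over all genes.

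**Figure D1:**
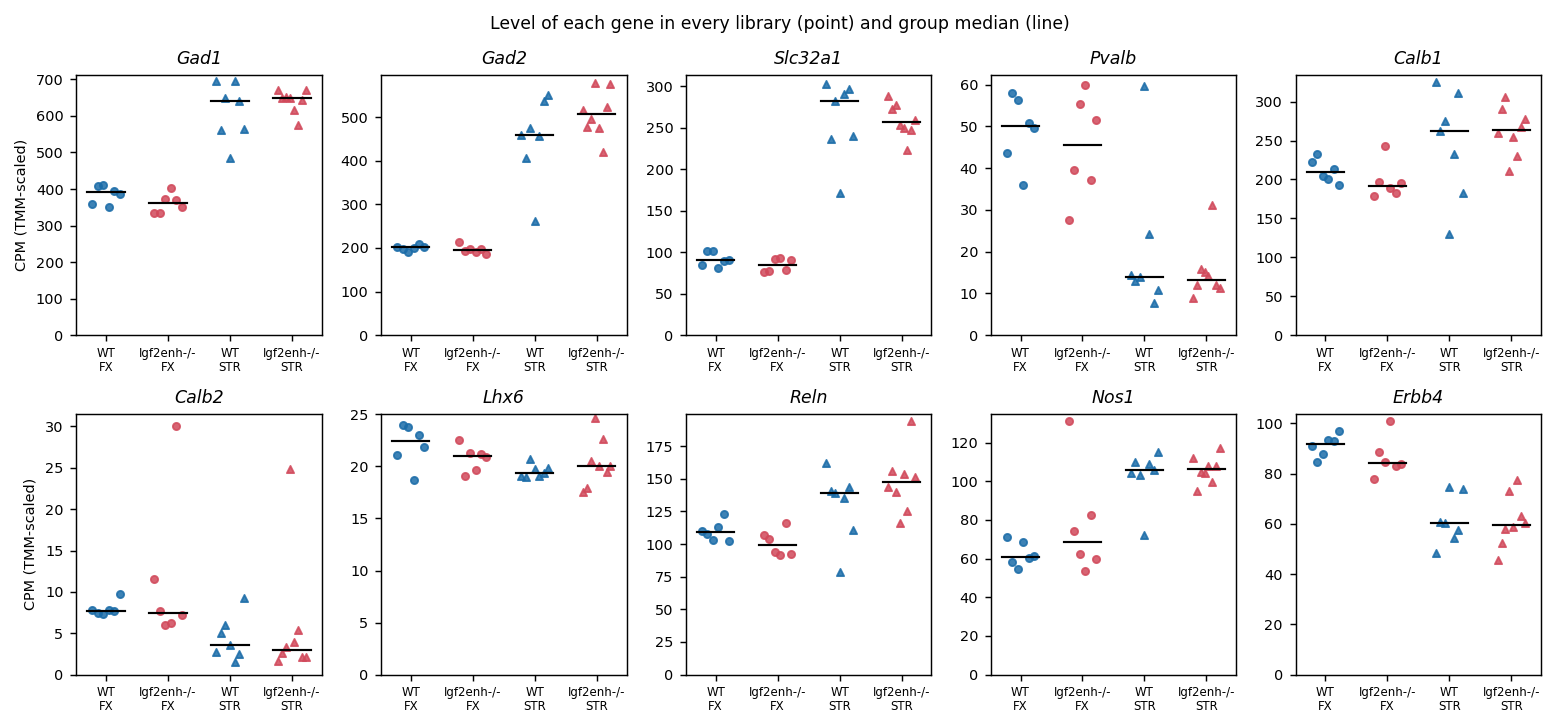
Level in CPM of each of the 10 genes in every library (points: circles FX, triangles STR; blue WT, red Igf2enh-/-) with the group median as a line, on axes that start at 0. Gad1, Gad2 and Slc32a1 are above all FX libraries in every STR library, Pvalb and Calb2 are lower in most STR libraries, and WT library 20 is the low STR point of Gad2, Slc32a1 and Nos1.

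Gad1 was measured at 333, 372 and 411 CPM (lowest, median, highest) in the 12 FX libraries and at 484, 648 and 695 CPM in the 15 STR libraries (log2 difference 0.75, SE 0.0498, adjusted p = 2.7e-13). Gad2 had 186, 198 and 213 CPM in FX and 262, 477 and 578 CPM in STR (log2 difference 1.27, SE 0.0777, adjusted p = 5.96e-14). Slc32a1 had 76.6, 90.1 and 102 CPM in FX and 171, 260 and 303 CPM in STR (log2 difference 1.56, SE 0.0681, adjusted p = 8.21e-17). The lowest STR value of all 3 came from WT library 20, the library with the most cortical marker RNA, and it still lay above the highest FX value. Gad2 was the most even of the 10 genes in FX, with an SD of 7.81 around a mean of 198 CPM.

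The 3 shared genes did not rise by the same factor. The log2 ratio of Gad1 to Gad2 counts was 0.65, 0.91 and 1.11 (lowest, median, highest) in FX and 0.03, 0.40 and 0.88 in STR, a mean difference of -0.50 (permutation test, two-sided, 100000 resamples, adjusted over 2 ratios, p = 4e-05). The log2 ratio of Slc32a1 to Gad2 was -1.48, -1.19 and -0.89 in FX and -1.20, -0.84 and -0.60 in STR, a mean difference of 0.30 (p = 0.00076 by the same permutation test). Counts of both genes of a ratio come from one library, so neither ratio depends on the scaling of the libraries. Relative to GAD65, GAD67 transcripts were therefore fewer and vesicular transporter transcripts more numerous in STR, and both ratios overlapped between the regions.

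Among the calcium-binding proteins, Pvalb had 27.6, 50.2 and 59.8 CPM in FX and 7.79, 14.0 and 59.7 CPM in STR (log2 difference -1.48, SE 0.227, adjusted p = 1.53e-06). Its STR values were uneven: 12 libraries lay at 7.79 to 15.8 CPM, and the other 3 were library 22 (WT, 24.2 CPM), library 23 (Igf2enh-/-, 31.1 CPM) and library 20 (WT, 59.7 CPM), the last within the FX range. Libraries 20 and 23 had the highest cortical marker sums of the STR libraries (1260 and 920 CPM), while library 22 had the lowest (65.1 CPM). The part of cortical tissue in the Pvalb values was not tested.

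Calb2 had 5.95, 7.65 and 30.1 CPM in FX and 1.54, 3.28 and 24.9 CPM in STR (log2 difference -0.996, SE 0.345, adjusted p = 0.0109). The highest FX value was in library 9, where the olfactory bulb markers were highest. The highest STR values were in libraries 19 and 26 (24.9 and 9.30 CPM). In those libraries the septal and pallidal sum and the thalamic sum were both highest, and the part of either tissue in Calb2 was not tested. Without library 9 the difference was -0.75 and missed the threshold (adjusted p = 0.0527), and without all 5 libraries that stood apart it was -1.23 (adjusted p = 8.86e-06). In Igf2enh-/- libraries alone it was -1.18, with an adjusted p of 0.0578. Calb1, abundant in both regions, had 179, 199 and 243 CPM in FX and 130, 262 and 325 CPM in STR (log2 difference 0.32, SE 0.0878, adjusted p = 0.00203), with overlapping ranges. In WT libraries alone the Calb1 difference was 0.23 and was not called (adjusted p = 0.22).

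Lhx6 was the gene closest to equal in the 2 regions, at 18.7, 21.2 and 24.0 CPM in FX and 17.5, 19.8 and 24.7 CPM in STR (log2 difference -0.10, 95% confidence interval -0.20 to -0.01, adjusted p = 0.0523). It passed the threshold with DESeq2 (adjusted p = 0.0466), with DESeq2's size factors in edgeR (0.0479), without the 5 libraries (0.0369) and in WT libraries alone (-0.16, adjusted p = 0.0172), as well as without any 1 of libraries 3, 7, 8, 18, 19 and 23. Any difference in Lhx6 was thus small beside that of Pvalb, although both are found in interneurons born in the medial ganglionic eminence.

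Of the enzymes, ligands and receptors, Nos1 had 53.8, 61.9 and 131 CPM in FX and 72.2, 106 and 117 CPM in STR (log2 difference 0.59, SE 0.0987, adjusted p = 5.25e-06). The FX value of 131 CPM was library 1 (Igf2enh-/-), which also had the highest septal and pallidal marker sum in FX (72.6 CPM, others 30.4 to 49.2) and the lowest Pvalb. Reln had 91.8, 106 and 123 CPM in FX and 78.3, 139 and 194 CPM in STR (log2 difference 0.40, SE 0.0833, adjusted p = 0.000111), and in WT libraries alone the difference was 0.25 and was not called (adjusted p = 0.0997). Erbb4 had 77.7, 88.2 and 101 CPM in FX and 45.6, 60.2 and 77.6 CPM in STR (log2 difference -0.55, SE 0.0601, adjusted p = 5.07e-09). The highest STR library of Erbb4 was just below the lowest FX library, which makes it the 1 interneuron gene whose regions did not overlap.

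**Figure D2:**
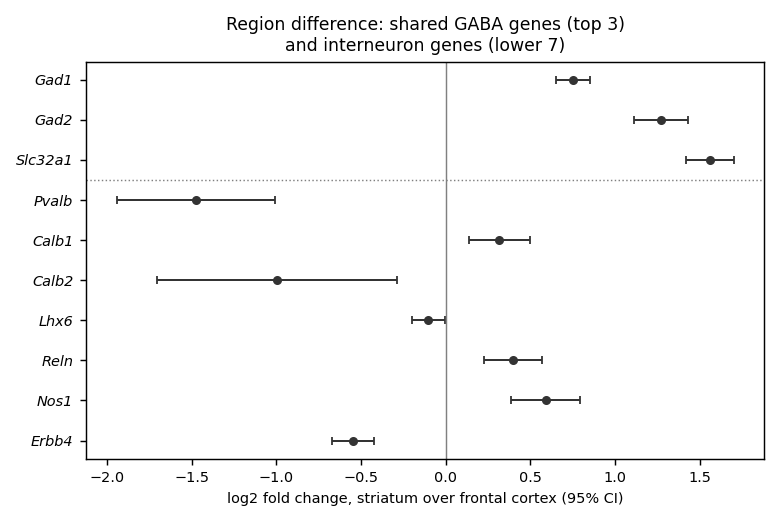
Log2 fold change of STR over FX with its 95% confidence interval from edgeR's quasi-likelihood fit of 27 libraries, for the 3 shared GABA genes above the dotted line and the 7 interneuron genes below it. The shared genes sit at 0.75 to 1.56, the interneuron genes spread from -1.48 (Pvalb) to 0.59 (Nos1).

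Per kilobase of exon, the order of the 10 genes also differed between regions. In FX the means ran from Gad1 (48.8 CPM per kb), Pvalb (45.3) and Calb1 (42.1) through Gad2 (33.8) and Slc32a1 (31.4) down to Erbb4 (7.19), Nos1 (6.43), Calb2 (5.57), Reln (5.31) and Lhx6 (4.52). In STR Slc32a1 came first (92.5 CPM per kb), then Gad1 (82.2), Gad2 (81.8), Calb1 (52.5), Pvalb (16.9), Nos1 (9.62), Reln (7.02), Erbb4 (4.95), Lhx6 (4.21) and Calb2 (2.93). In FX 2 gaps separated neighbours whose library ranges did not overlap, between Calb1 and Gad2 and between Slc32a1 and Erbb4, and in STR the ranges of all neighbours overlapped. Pvalb, a short transcript, was thus near the top of the FX order and in the middle of the STR order. Exon lengths were read from a GENCODE vM1 annotation, an older one than the authors' vM15.

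Other genes of the same pathways gave the setting. The counts called in each list below stand beside 77.7% of all 13414 genes called for region, 39.4% higher and 38.3% lower in STR. A list with most of its genes called is therefore close to the share among all genes. Of 20 other interneuron markers 14 were tested across regions, with 2 higher and 10 lower in STR (median log2 difference -0.53). The largest differences were in Cck (-2.64, SE 0.335), a peptide also made by cortical pyramidal cells, and in the potassium channel genes of fast-spiking cells Kcnc2 (-1.90, SE 0.190) and Kcns3 (-1.67, SE 0.173). Vip, the peptide of another cortical interneuron class, had 50.8 to 70.7 CPM in FX and 0.547 to 23.0 CPM in STR, where its highest libraries were 20 and 23, and it was not among the genes tested because it fell under 1 CPM in some STR libraries. Sst (113 to 163 CPM in FX, 90.6 to 158 in STR) and Npy (45.8 to 63.1 in FX, 29.8 to 60.4 in STR) were closer in level.

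Of 18 interneuron transcription factors 15 were tested, 5 higher and 8 lower in STR (median -0.46). The 3 with the largest differences were all higher: Sp9 (2.87, SE 0.107), Dlx6 (2.86, SE 0.104) and Dlx5 (2.07, SE 0.0888), factors that striatal projection neurons use as well. Of 10 genes of GABA transport and breakdown 9 were tested, 2 higher and 5 lower (median -0.23), with the transporter Slc6a13 lower (-2.10, SE 0.112) and the GABA transaminase Abat higher (1.03, SE 0.0467). Abat thus rose in STR along with the genes that make and load GABA. Slc6a13, known from meninges rather than neurons, was lower beside the 5 meningeal fibroblast markers tested, which were all called lower in STR.

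Around Erbb4, 8 of 10 neuregulin and ErbB genes were tested, 5 higher and 1 lower in STR (median 0.56). The ligand Nrg3 was lower (-1.56, SE 0.125), as its receptor Erbb4 was, while Erbin (1.27, SE 0.0569) and Erbb3 (1.23, SE 0.101), a receptor of oligodendrocyte lineage cells, were higher, and all 6 oligodendrocyte markers were higher in STR too. Of 8 genes of reelin signalling 1 was higher and 6 were lower (median -0.29), with the 2 reelin receptors moving apart, Lrp8 down (-0.84, SE 0.0871) and Vldlr up (0.71, SE 0.0486), and the kinase Src down (-0.60, SE 0.0455). Of 10 genes of nitric oxide signalling 8 were tested, 3 higher and 4 lower (median -0.20), and the 3 largest differences were all lower in STR although Nos1 itself was higher: the adaptor Nos1ap (-1.31, SE 0.0754), the phosphodiesterase Pde5a (-1.15, SE 0.0983) and the kinase Prkg2 (-0.87, SE 0.0847). Of 10 other EF-hand calcium-binding genes 8 were tested, 1 higher and 5 lower (median -0.30), with Vsnl1 (-2.05, SE 0.212) and Ncald (-1.89, SE 0.187) lower and Hpca (1.52, SE 0.090), hippocalcin, higher.

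The genotype comparison in frontal cortex asked whether loss of the enhancer changed these genes. None of the 10 was called in 6 Igf2enh-/- against 6 WT libraries by edgeR's quasi-likelihood test (adjusted p from 0.412 to 0.793), none had an unadjusted p under 0.05, and none was called by edgeR's likelihood ratio test or DESeq2. Of all genes, the quasi-likelihood test called 53 of 13936 (0.38%). The estimates were small, negative for 8 of 10 and between -0.13 and 0.51 on the log2 scale (median -0.09, beside 0.00 over all genes). For no gene did the genotypes separate completely, against 1.29% of all genes tested.

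Reln came closest to the threshold, with 102, 109 and 123 CPM in WT and 91.8, 99.1 and 116 CPM in Igf2enh-/- (log2 difference -0.12, 95% confidence interval -0.26 to 0.01, adjusted p = 0.412 by edgeR's test across genes). The genotypes overlapped. Gad1 had 350, 391 and 411 CPM in WT and 333, 361 and 403 CPM in Igf2enh-/- (-0.09, interval -0.21 to 0.02), Gad2 190, 201 and 208 against 186, 195 and 213 CPM (-0.03, interval -0.11 to 0.04), and Slc32a1 80.5, 90.3 and 102 against 76.6, 84.5 and 92.6 CPM (-0.12, interval -0.27 to 0.03). The Gad2 interval was the narrowest of the 10 and left room for at most a small change.

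The interneuron genes with the widest intervals in FX were Calb2, Nos1 and Pvalb. Calb2 and Nos1 each had a single high library. Calb2 had 7.27, 7.71 and 9.78 CPM in WT and 5.95, 7.41 and 30.1 CPM in Igf2enh-/- (0.51, interval -0.21 to 1.22), and Nos1 54.7, 60.7 and 70.9 CPM in WT and 53.8, 68.4 and 131 CPM in Igf2enh-/- (0.29, interval -0.06 to 0.65). Without library 9 the Calb2 estimate turned to -0.05, and without library 1 the Nos1 estimate was 0.09. Pvalb had 35.9, 50.2 and 58.1 CPM in WT and 27.6, 45.5 and 59.8 CPM in Igf2enh-/- (-0.13, interval -0.48 to 0.23), and Calb1, Lhx6 and Erbb4 differed by -0.10, -0.09 and -0.08 with overlapping ranges.

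In striatum, none of the 10 genes was called in 8 Igf2enh-/- against 7 WT libraries by the same test (adjusted p from 0.696 to 0.987), none had an unadjusted p under 0.05, and none was called by the likelihood ratio test or DESeq2. Of all genes, 5 of 13875 were called (0.036%). Estimates were positive for 8 of 10, between -0.36 and 0.21 (median 0.06, beside 0.00 over all genes), and no gene separated the genotypes, as against 0.231% of all genes tested. Gad2 had 262, 459 and 551 CPM in WT and 421, 506 and 578 CPM in Igf2enh-/- (0.18, interval -0.09 to 0.45), Gad1 484, 642 and 695 against 575, 649 and 671 CPM (0.06, interval -0.09 to 0.21), and Slc32a1 171, 282 and 303 against 223, 256 and 288 CPM (-0.01, interval -0.23 to 0.20). The low WT value of all 3 was library 20. In the fit without STR libraries 15, 19, 20 and 26 the Gad1 estimate was -0.03, and no shared gene was called.

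Pvalb had 7.79, 14.0 and 59.7 CPM in WT STR and 8.97, 13.2 and 31.1 CPM in Igf2enh-/- STR (-0.36, interval -1.13 to 0.42), and without those 4 libraries the estimate was 0.01. Reln had 78.3, 139 and 162 against 116, 147 and 194 CPM (0.17, interval -0.08 to 0.42), Calb1 130, 262 and 325 against 211, 263 and 306 CPM (0.08, interval -0.22 to 0.39), and Calb2 1.54, 3.60 and 9.30 against 1.58, 2.93 and 24.9 CPM (0.21, interval -0.99 to 1.41). Genotypes overlapped for each. Lhx6, Nos1 and Erbb4 had the tightest estimates of the interneuron genes here, 0.06 (interval -0.06 to 0.19), 0.05 (-0.12 to 0.22) and 0.01 (-0.19 to 0.21). The interval for Calb2 held changes of more than 1.5-fold either way, and that for Pvalb held such changes downward. Changes of that size in those directions were therefore not excluded by these libraries.

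**Figure D3:**
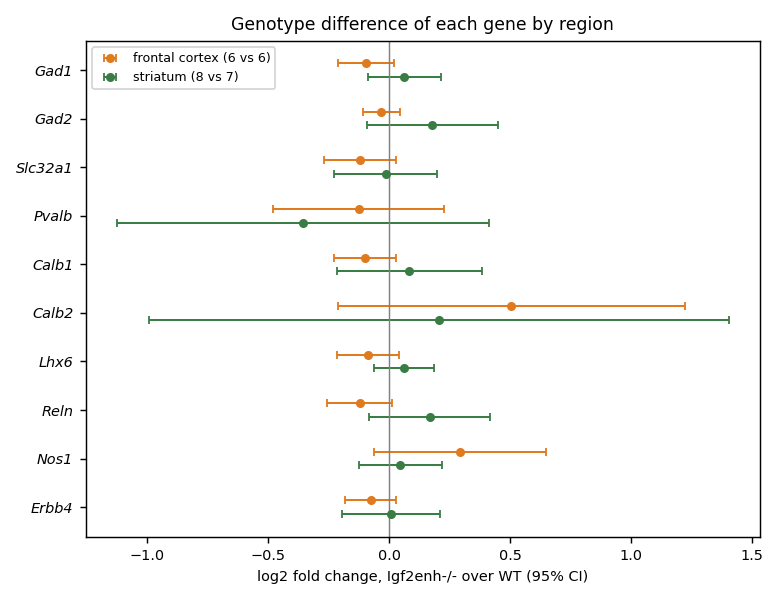
Log2 fold change of Igf2enh-/- over WT with its 95% confidence interval for each gene, in FX (orange, 6 against 6 libraries) and STR (green, 8 against 7). Every interval includes 0, the narrowest being that of Gad2 in FX and the widest that of Calb2 in STR.

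Of the other lists, no gene of interneuron markers, transcription factors, GABA transport, neuregulin, reelin, nitric oxide or calcium-binding genes passed the threshold for genotype in either region. Outside the transcription factors, the smallest p of each list in FX belonged to Fyn (-0.29, SE 0.0725, adjusted p = 0.101), Slc6a13 (0.46, SE 0.164), Tac2 (0.25, SE 0.0921), Hpca (-0.14, SE 0.0554), Nos3 (0.15, SE 0.0933) and Erbin (-0.09, SE 0.0564). Fyn passed in FX with the likelihood ratio test (adjusted p = 0.018), with DESeq2 (0.0177) and with no filter on low counts (0.00015), and Slc6a13 with no filter (0.00495). The 8 meningeal fibroblast markers, of which 7 had estimates above 0 in FX (median 0.26) and none was called, had sums of 53.0 to 126 CPM in WT and 76.3 to 135 CPM in Igf2enh-/- libraries of FX, and their part in the Slc6a13 value was not tested. In STR they belonged to Fyn (-0.30, SE 0.0947, adjusted p = 0.331), Egfr (0.12, SE 0.070), Slc38a2 (-0.15, SE 0.0961), Calm3 (-0.09, SE 0.0553), Ndnf (-0.17, SE 0.122) and Gucy1a1 (0.11, SE 0.113). The Fyn estimate was below 0 in both regions, without passing the test in either.

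Whether the genotype difference depended on region was tested as an interaction over all 27 libraries. None of the 10 genes was called, and none of 13414 genes was (0.0%) by edgeR's quasi-likelihood test, with 405 at an unadjusted p under 0.05 and none called by the likelihood ratio test or DESeq2. The largest of the 10 estimates was that of Reln (0.30, SE 0.158, adjusted p = 1 by edgeR's test), which was lower than WT in FX and higher in STR without passing in either. The list gene of smallest p was Vldlr (0.23, SE 0.0868), a reelin receptor, and the others were Sox6, Slc6a13, Egfr, Kit, Gucy1a1 and Calm3 (adjusted p = 1 for each).

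Males and females differed in none of the 10 genes beyond the threshold in either region. In FX 6 genes of 13936 (0.0431%) and in STR 6 of 13875 (0.0432%) were called for sex. In STR 3 of the 10 had an unadjusted p under 0.05, with Erbb4 higher in males (0.25, SE 0.0947) and Reln (-0.27, SE 0.118) and Calb1 (-0.31, SE 0.141) lower, all at an adjusted p from 0.448 to 0.461 by edgeR's test. Of the STR libraries that stood apart in markers or in Pvalb, 19, 20, 22, 23 and 26 were from males and 15 was from a female. Among the list genes of smallest p for sex were Slc6a13, Vip, Prox1, Erbin, Fyn, Prkg2 and Ncs1 in FX and Kcnc1, Dlx1, Egfr, Fyn, Nos3 and Calm2 in STR, none past the threshold. No dependence of the genotype difference on sex was called for any of the 10 genes in either region by edgeR's quasi-likelihood test. In FX 3 genes of 13936 were called (0.0215%). In STR none of 13875 was (0.0%), with 355 at an unadjusted p under 0.05 and 1 called by the likelihood ratio test. Each sex of a genotype had 3 or 4 libraries, and Calb2 had the widest interval in both regions. Its estimate was 0.64 in FX (interval -0.81 to 2.08) and 2.02 in STR (interval -0.17 to 4.21). One of the 3 FX genes was Fyn, a kinase that acts below the reelin receptors (-0.50, SE 0.0617, adjusted p = 0.00772). Among the other list genes of smallest p were Etv1, Kit, Erbb3, Gucy1b1 and S100b in FX and Fyn, Egfr, Slc38a2, Pthlh, Prkg2 and Ncald in STR, with adjusted p from 0.763 to 1.

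Across the libraries of one region, the 10 genes varied together in part. In FX, 6 of 45 pairs passed the threshold in Pearson's r (permutation test, adjusted over 45 pairs), 3 positive and 3 negative, and all of them also in Spearman's rho. Pvalb rose with Slc32a1 (r = 0.90, permutation p = 3e-05, adjusted 0.00112; rho = 0.92, permutation p = 9e-05, adjusted 0.0024; n = 12) and fell with Nos1 (r = -0.92, permutation p = 5e-05, adjusted 0.00112; rho = -0.91, permutation p = 0.00014, adjusted 0.0024). Gad1 rose with Slc32a1 (r = 0.84, permutation p = 0.00115, adjusted 0.0129; rho = 0.88, permutation p = 0.0003, adjusted 0.00337). Without the 2 libraries farthest from the median of the first gene named, r was 0.89 for Slc32a1 and Pvalb, -0.96 for Pvalb and Nos1 and 0.73 for Gad1 and Slc32a1. Within genotype, r of Pvalb and Nos1 was -0.86 in WT and -0.97 in Igf2enh-/- libraries, and r of Slc32a1 and Pvalb was 0.95 and 0.94. The FX libraries with more parvalbumin RNA thus had more vesicular transporter RNA and less neuronal nitric oxide synthase RNA. None of the 10 genes followed the sums of the medium spiny, cortical glutamatergic, oligodendrocyte or septal markers over the FX libraries past the threshold in 40 tests. Closest by r were Nos1 with the septal sum (0.88, permutation p = 0.00241, adjusted 0.0562) and Pvalb with the medium spiny sum (0.80, permutation p = 0.00281, adjusted 0.0562). Without libraries 1 and 2 r was 0.59 for Nos1, and without libraries 1 and 8 it was 0.34 for Pvalb.

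In STR 21 of 45 pairs passed by r, 12 positive and 9 negative, but only 4 of the 45 passed by both r and rho, and library 20 was among those farthest from the median for most genes. The pair Gad1 and Slc32a1 again varied together (r = 0.92, permutation p = 1e-05, the smallest these permutations can give, adjusted 0.00045; rho = 0.79, permutation p = 0.00077, adjusted 0.0173; n = 15), and r was 0.79 without libraries 16 and 20. Calb1 and Reln did so (r = 0.87, permutation p = 0.00027, adjusted 0.00607; rho = 0.74, permutation p = 0.00233, adjusted 0.0287), with r = 0.56 without libraries 20 and 26. Slc32a1 and Erbb4 moved oppositely (r = -0.75, permutation p = 0.00054, adjusted 0.0081; rho = -0.85, permutation p = 0.0001, adjusted 0.0045), and r stayed at -0.75 without libraries 14 and 20. Gad2 and Nos1 had r = 0.85 (permutation p = 0.00522, adjusted 0.0184) but rho = 0.45 (permutation p = 0.0935, adjusted 0.248), and r = 0.49 without libraries 19 and 20, so that relation rests on those libraries. Pvalb and Slc32a1, positive in FX, were negative in STR (r = -0.71, permutation p = 0.00886, adjusted 0.0266; rho = -0.27, permutation p = 0.32, adjusted 0.497), with r = -0.37 without libraries 14 and 20. Of the 45 pairs, 21 had r of the same sign in both regions.

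**Figure D4:**
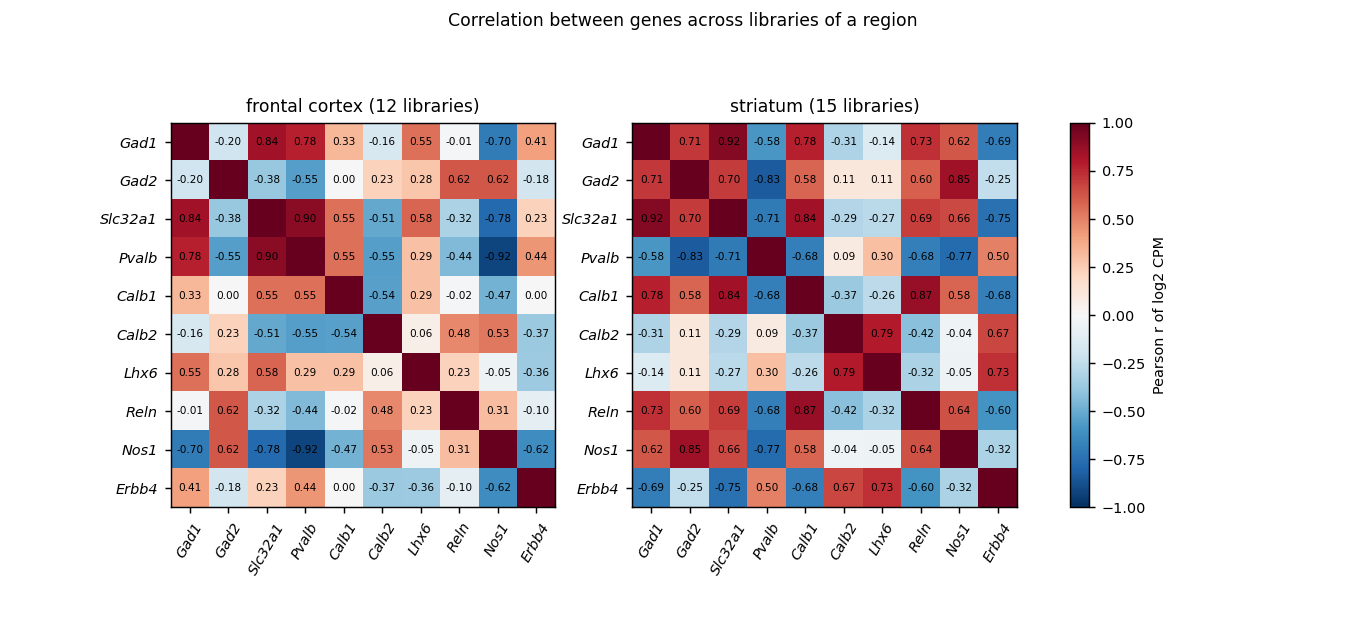
Pearson's r of log2 CPM between each pair of the 10 genes over the 12 FX libraries (left) and the 15 STR libraries (right), from blue (negative) to red (positive). Gad1 and Slc32a1 are strongly positive in both panels (0.84 and 0.92), while Slc32a1 and Pvalb go from 0.90 in FX to -0.71 in STR.

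Over the STR libraries Gad1, Slc32a1 and Erbb4 moved with the regional marker sums. Slc32a1 fell as the cortical glutamatergic marker sum rose (r = -0.80, permutation p = 8e-05, adjusted over 40 tests 0.00107; rho = -0.89, permutation p = 5e-05, adjusted 0.0016), as did Gad1 (r = -0.84, permutation p = 0.00012, adjusted 0.0012; rho = -0.83, permutation p = 0.00031, adjusted 0.0031). Erbb4 rose with it (r = 0.78, permutation p = 0.0006, adjusted 0.003; rho = 0.82, permutation p = 0.00041, adjusted 0.00328). Without libraries 14 and 22, r was -0.83, -0.85 and 0.78 for these 3 genes. Gad2 did not follow the cortical sum past the threshold (r = -0.39, permutation p = 0.152, adjusted 0.234; rho = -0.28, permutation p = 0.314, adjusted 0.476), nor did Pvalb (r = 0.37, permutation p = 0.181, adjusted 0.25; rho = 0.37, permutation p = 0.175, adjusted 0.35), for which r was 0.76 without libraries 14 and 22, nor Nos1 or Lhx6. Without the same 2 libraries r was -0.66 for Gad2. Calb2 rose with the cortical sum (r = 0.60, permutation p = 0.0185, adjusted 0.0493; rho = 0.78, permutation p = 0.00075, adjusted 0.00425). Calb1 fell with it past the threshold by r (-0.60, permutation p = 0.0175, adjusted 0.0493) but not by rho (-0.63, permutation p = 0.0142, adjusted 0.0587). With the medium spiny sum the directions were turned, r being 0.88 for Slc32a1 (permutation p = 6e-05, adjusted 0.00107; rho = 0.79, permutation p = 0.00085, adjusted 0.00425), and without libraries 19 and 20 r was 0.82. Calb1 rose with that sum by r (0.86, permutation p = 0.00026, adjusted 0.00173) but not by rho (0.62, permutation p = 0.0169, adjusted 0.0613). So did Reln, by r (0.85, permutation p = 0.00021, adjusted 0.00168) but not by rho (0.62, permutation p = 0.0147, adjusted 0.0587). Without libraries 19 and 20 r was 0.64 for Calb1 and 0.60 for Reln. By r, Erbb4, Pvalb and Calb2 fell with the medium spiny sum past the threshold. Erbb4 (rho = -0.84, permutation p = 0.00022, adjusted 0.00293) and Calb2 (rho = -0.86, permutation p = 8e-05, adjusted 0.0016) also passed by rho. Pvalb did not (rho = -0.40, permutation p = 0.139, adjusted 0.308). Without libraries 19 and 20 r was -0.89 for Erbb4, -0.89 for Calb2 and -0.29 for Pvalb. Each of these sums shares its library and its scaling with the gene it is set beside.

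**Figure D5:**
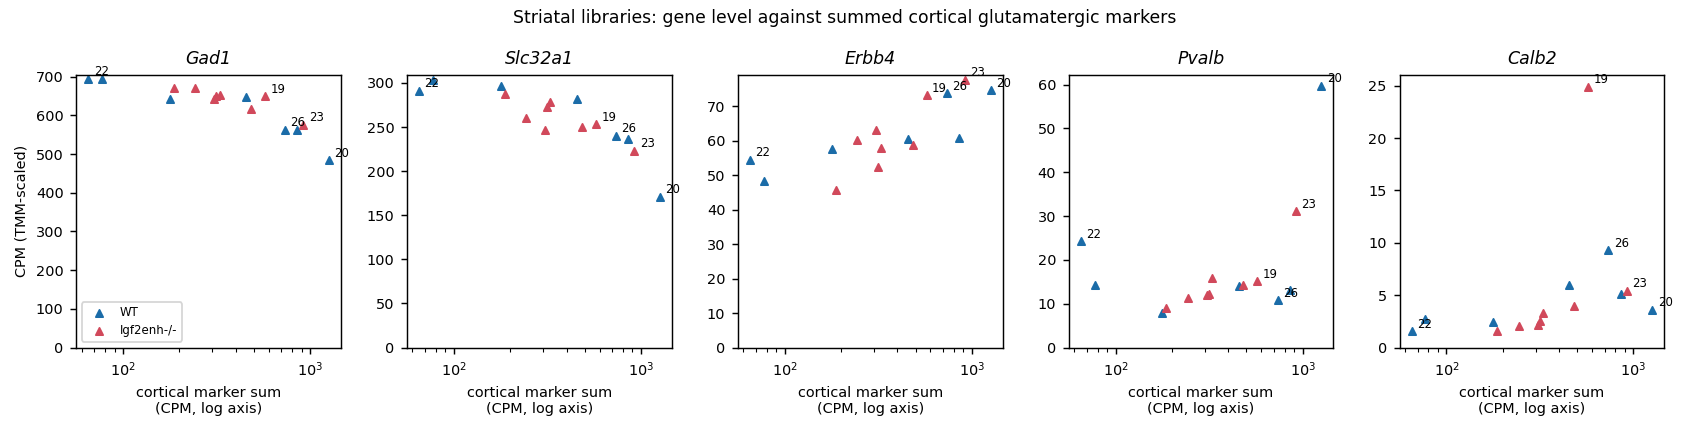
Level in CPM of Gad1, Slc32a1, Erbb4, Pvalb and Calb2 in the 15 STR libraries against the summed level of 10 cortical glutamatergic markers (log axis), WT in blue and Igf2enh-/- in red, with libraries 19, 20, 22, 23 and 26 numbered. Gad1 and Slc32a1 fall and Erbb4 rises along the axis, Pvalb stands high in libraries 20, 23 and 22, and Calb2 in libraries 19 and 26.

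The genes whose levels ran most like each of the 10 were found over 13414 genes by the mean of r within FX (12 libraries) and within STR (15 libraries). For Gad1 they were Slc32a1 (mean r 0.88) and Abat (0.86), and for Slc32a1 Gad1 (0.88) and Abat (0.87), so Gad1 and Slc32a1 were each other's nearest gene and shared the next, the GABA-degrading enzyme. For Gad2 they were Fras1 (0.83) and Lmo7 (0.81). The nearest genes of Pvalb were Cplx1 (0.95), a complexin of fast-releasing synapses and one of the listed interneuron markers, and Asb13 (0.94), the closest likeness of any of the 10. Calb2 ran with Gng4 (0.91) and Ablim3 (0.88), Calb1 with Slc12a5 (0.87), the neuronal potassium chloride cotransporter, and Dock4 (0.84), and Erbb4 with Kcnt2 (0.93) and Abca5 (0.87). Nos1 ran with Scn3b (0.92) and Gria1 (0.91), an AMPA receptor subunit, Reln with Ankrd63 (0.81) and Fndc1 (0.80), and Lhx6 with Cmtr1 (0.76) and 2310022B05Rik (0.67). These values are descriptions of 27 libraries and carry no test.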

How the data were processed

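RNA of frontal cortex and striatum from WT and Igf2enh-/- mice was sequenced as 75 bp single-end reads. Per the labels and the study's methods, STAR aligned the reads to GRCm38 (GENCODE vM15) once Trim Galore 0.5.0 had trimmed them, and the authors deposited raw counts per gene, not normalized. For sequencing, the paper's mouse methods refer to its human RNA-seq methods, where the libraries were run across 3 flow cells. Whether that number holds for these libraries, and which library ran on which flow cell, is not given in the sources used here. The counting tool and its strand setting are not given in the sources used here. All 27 columns matched a sample, and sums per library ran from 23686945 to 33926904 counts, so that 1 CPM stood for 23.7 to 33.9 counts. Names came from reference tables for 32688 of 52636 identifiers, and 190 of 192 listed symbols were found.

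A gene was tested where no library of the comparison was under 1 CPM. Levels are CPM scaled by TMM over all 27 libraries (factors 0.98 to 1.033). Differences were tested with edgeR 4.0.16 (quasi-likelihood F-test, R 4.3.3), with genotype, region and sex as terms as the comparison needed, and Benjamini-Hochberg adjustment over all genes tested. An adjusted p under 0.05 was called. Alternatives were DESeq2 1.42.0, its size factors, total-count scaling, the likelihood ratio test, 2 other filters, no sex term, single genotypes and leaving out each library. The region fit and the genotype fit in FX were tested on simulated data. Ratios used raw counts, and correlations log2(CPM + 0.5), both with 100000 permutations. The paper gives 6 WT and 6 Igf2enh-/- mice for FX and 7 WT and 8 Igf2enh-/- mice for STR, the same numbers as the libraries. Within a region, p-values therefore measure the spread between mice. Across regions, libraries that may share a mouse were treated as separate.

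The 10 genes and the lists were chosen with earlier results of these data known. Named besides them were the 3 listed genes of largest change past the threshold per list in the region comparison, all past the threshold or else the 1 of smallest p per list elsewhere, the 2 most alike genes per member, the first 3 of a marker list, and Igf2. Genes named beyond this rule, and the 5 libraries left out together, were chosen after their values were seen. Some genes that this rule picks are not reported here.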

Additional observations from a re-analysis of the deposited data

Results flagged for a closer look

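In 40 tests, 1 for each of the 10 genes in each of the 4 groups, Dixon's ratio (the gap of the most distant library over the range of the group, on log2 CPM) passed its 95% critical value 7 times, where chance flags about 1 in 20. WT STR library 20 was lowest in Gad2 (0.589), Slc32a1 (0.57) and Nos1 (0.777). This library had the most cortical and oligodendrocyte marker RNA of the STR libraries. Igf2enh-/- STR library 23 was highest in Pvalb (0.549), with the second highest cortical marker sum. Igf2enh-/- STR library 19 was highest in Calb2 (0.582), with the highest septal and pallidal marker sum and the highest thalamic marker sum. WT FX library 12 was highest in Calb2 (0.773), at 9.78 CPM. Igf2enh-/- FX library 5 was highest in Calb1 (0.683), at 243 CPM.

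Fyn, which belongs to the list of reelin signalling, differed by genotype in FX according to sex (interaction -0.50 on the log2 scale, adjusted p = 0.00772 by edgeR). The 3 WT males had 178, 179 and 183 CPM, and the other 9 FX libraries 118 to 130 CPM. In STR 3 of 4 WT males had 157, 161 and 179 CPM, and the fourth (109 CPM, library 26) lay with the other libraries (102 to 112 CPM); the interaction there was -0.43 (SE 0.158, adjusted p = 1). Without WT FX library 6 the FX interaction was -0.49 and missed the threshold (adjusted p = 0.0505).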

How the results depend on the processing

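In the region comparison the direction of all 10 genes was kept in every alternative run, and the calls that changed are given with the genes above: Lhx6, Calb1, Reln and Calb2. Leaving out 1 library at a time gave 6 of the 10 genes called higher each time, 2 to 4 lower and 10292 to 10565 genes called in all. No alternative called any of the 10 genes for genotype, sex or an interaction.

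The number of genes called moved with the test and the filter. For genotype in FX it was 53, and 232 with the likelihood ratio test, 242 with DESeq2, 459 with no filter and 8 to 99 with 1 library left out. In STR it was 5, and 56 with the likelihood ratio test, 112 with DESeq2, 10 with no filter, 13 with filterByExpr, 3 without the sex term, 51 with the cortical marker sum as a term (chosen after seeing the data) and 3 to 8 with 1 library left out. With the likelihood ratio test sex gave 28 genes in FX and 12 in STR, and the interaction with sex 12 in FX and 1 in STR; with 1 FX library left out it gave 2 to 5.

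Estimates near 0 changed sign. For genotype in STR, Erbb4 was -0.01 without the sex term; Gad1 was -0.03, Pvalb 0.01, Calb1 -0.08 and Calb2 -0.17 without libraries 15, 19, 20 and 26; and with the cortical term Slc32a1 was 0.03 and Erbb4 -0.02. The interaction of region and genotype was -0.03 for Slc32a1 and 0.12 for Pvalb without the 5 libraries. With 1 library left out, the genotype estimate in STR ran from -0.09 to 0.03 (Slc32a1), -0.04 to 0.04 (Erbb4), -0.54 to 0.42 (Calb2), -0.55 to 0.08 (Pvalb), -0.01 to 0.19 (Calb1) and -0.02 to 0.08 (Nos1), that in FX from -0.05 to 0.66 (Calb2), the region interaction from -1.02 to 0.26 (Calb2) and -0.46 to 0.24 (Pvalb), and the sex interaction in FX from -0.11 to 0.04 (Erbb4), -0.09 to 0.13 (Calb1) and -0.50 to 1.00 (Calb2). The cause was not tested. Library numbers are not shared between groups. No paired analysis was possible because the labels do not say which libraries share a mouse. All 10 genes stayed above the filter of 1 CPM, the lowest being Calb2 at 1.54 CPM. Counts of Calb2 in STR were as low as 39, and whether depth limited its estimates was not tested.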
